A study of Homo sapiens with 36 samples.

Results

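IFI27, IFI6, IFITM1, IFITM2 and IFITM3, 5 of the 15891 genes in the deposited table, are interferon-stimulated genes. They were followed over 6 days in HCT116 cells, a line from a human colorectal carcinoma, that were exposed to the drug 5-fluorouracil (5-FU). The 5 genes were chosen by name with their day-to-day levels in these libraries already known, so every difference between days is given for them as a description with no test. All 5 were found in the table. The shared label, late interferon genes, fitted IFI27, IFI6 and IFITM1, whose D14 and D16 libraries lay above those of every earlier day in both fractions. It fitted IFITM2 and IFITM3 less well, since in both fractions their D14 and D16 libraries overlapped those of earlier days.

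5-FU is a pyrimidine analogue that blocks thymidylate synthesis and is incorporated into RNA and DNA. Cells were plated 48 h before 10 µM 5-FU was added and were exposed for 48 h, per the labels' protocols. They were collected on D1 and D2, on D7, D14 and D16 after the exposure, and on D0 just before the drug. No culture without drug was sampled on the later days, so time in culture and the drug cannot be told apart. From each collection came a heavy polysomal pool, the sucrose-gradient fractions with mRNA carrying more than 3 ribosomes, and cytoplasmic RNA, the lysate after nuclei and mitochondria had been pelleted. All cells, also those of D0, received emetine, which freezes ribosomes on mRNA, before harvest. There were 12 groups, each day in each fraction, with 3 libraries a group, lettered A, B and C and labelled as batches, 36 libraries in all. Nothing says whether the letters were separate cultures, so p-values measure the spread between these libraries only.

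Type I and type III interferons bind receptors on the cell surface, and the kinases JAK1 and TYK2 pass the signal on to transcription factors, among them STAT2 and IRF9. These act at the interferon-stimulated response element in promoters, a DNA site built around repeated GAAA blocks. IFITM1, IFITM2 and IFITM3 are small membrane proteins that hinder the fusion of viruses with cell membranes, IFITM1 mostly at the cell surface and the other 2 mostly in endosomes. IFI6 and IFI27 are small hydrophobic proteins of the related ISG12 family, IFI6 an inhibitor of flavivirus replication at the endoplasmic reticulum that has also been described as antiapoptotic, and IFI27 a protein linked to mitochondria and apoptosis.

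The promoter windows of the members are printed because they hold pairs of GAAA blocks, the pattern of this element. RefSeq windows (GRCh38.p14, 250 bases before to 50 after an annotated start) were matched by symbol for 4 of the 5 genes, all but IFITM2. Capitals mark each run of GAAA, any 2 bases, GAAA, and its reverse complement, TTTC, any 2 bases, TTTC.
IFI27, chr14:94110486-94110785 (plus strand): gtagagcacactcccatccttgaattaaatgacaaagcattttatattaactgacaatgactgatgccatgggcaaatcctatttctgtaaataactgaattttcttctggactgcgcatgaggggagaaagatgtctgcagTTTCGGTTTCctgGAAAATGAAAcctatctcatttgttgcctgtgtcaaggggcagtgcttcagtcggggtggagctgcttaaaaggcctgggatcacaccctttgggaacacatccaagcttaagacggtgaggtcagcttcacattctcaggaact
IFI6, chr1:27672143-27672442 (minus strand): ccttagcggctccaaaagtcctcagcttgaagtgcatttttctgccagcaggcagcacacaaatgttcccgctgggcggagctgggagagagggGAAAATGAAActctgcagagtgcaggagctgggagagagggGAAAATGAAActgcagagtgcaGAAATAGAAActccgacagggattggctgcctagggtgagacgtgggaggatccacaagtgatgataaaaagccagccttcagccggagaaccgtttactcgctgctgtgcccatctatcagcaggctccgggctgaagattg
IFITM1, chr11:313790-314089 (plus strand): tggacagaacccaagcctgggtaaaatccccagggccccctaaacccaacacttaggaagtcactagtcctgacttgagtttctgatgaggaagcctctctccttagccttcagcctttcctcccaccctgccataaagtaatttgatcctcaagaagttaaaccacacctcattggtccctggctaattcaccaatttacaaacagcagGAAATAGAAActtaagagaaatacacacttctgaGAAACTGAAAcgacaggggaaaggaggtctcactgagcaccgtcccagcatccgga
IFITM3, chr11:320811-321110 (minus strand): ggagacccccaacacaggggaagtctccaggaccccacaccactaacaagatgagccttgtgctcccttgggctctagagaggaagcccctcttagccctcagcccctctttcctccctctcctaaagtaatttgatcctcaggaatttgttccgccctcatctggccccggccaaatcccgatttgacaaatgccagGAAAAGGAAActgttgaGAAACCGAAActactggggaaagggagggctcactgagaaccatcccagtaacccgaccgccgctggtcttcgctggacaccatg
IFI6 held 3 such runs on its own strand, the first 2 with identical letters. IFITM1 and IFITM3 held 2 each on their own strand, and IFI27 held 1 on each strand, 3 bases apart. The runs began 156, 115 and 93 bases before the annotated start of IFI6, 52 and 35 before that of IFITM3, 40 and 6 before that of IFITM1, and 108 and 95 before that of IFI27. A second IFI27 window, chr14:94110565-94110864, overlaps the printed one and holds the same 2 runs. Such a run, on either strand, was present in 1255 of all 35116 promoter windows (3.57%). It was present in 25 of 39 windows (64.1%) of 28 genes from the list of 35 other antiviral effectors used below. These 28 include genes that the deposited table does not list. A match describes letters in the window and is not evidence of binding.

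**Figure D1:**
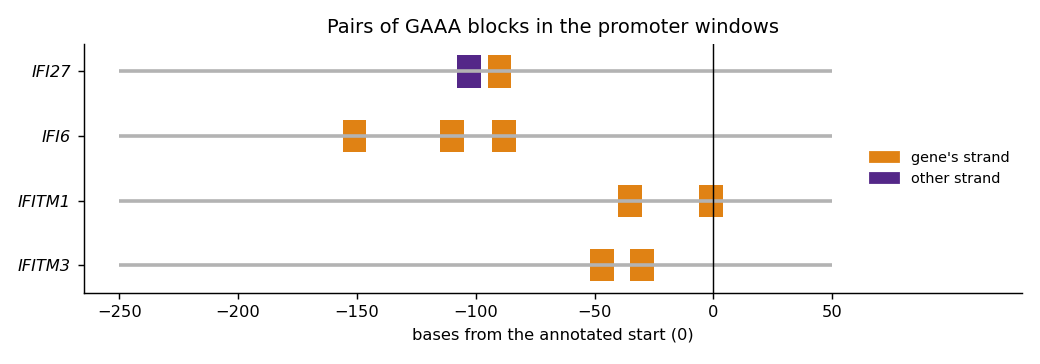
Positions of runs of GAAA, any 2 bases, GAAA in the promoter windows of 4 genes, in bases from the annotated start, coloured by strand. IFI6 has 3 runs, and the other genes have 2 each, all within the 156 bases before the start apart from the end of the second IFITM1 run.

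IFI27 lies on chromosome 14 (94104836 to 94116698, plus strand) and IFI6 on chromosome 1 (27666061 to 27672218, minus strand), both protein-coding genes of GENCODE 29 on GRCh38. The IFITM genes share a cluster on chromosome 11, with IFITM2 (307631 to 315272) and IFITM1 (313506 to 315272) on the plus strand and IFITM3 (319669 to 327537) on the minus strand. The coding sequences of the 3 IFITM genes are near copies, and how the counting shared reads between them is not given in the sources used here, so their separate values are uncertain. The first 120 coding bases are printed to show how alike they are; capitals mark bases of IFITM2 and IFITM1 that differ from, or have no partner in, IFITM3 in a pairwise alignment.
IFITM3: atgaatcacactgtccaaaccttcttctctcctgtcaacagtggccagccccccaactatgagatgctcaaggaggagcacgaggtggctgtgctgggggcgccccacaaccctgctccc
IFITM2: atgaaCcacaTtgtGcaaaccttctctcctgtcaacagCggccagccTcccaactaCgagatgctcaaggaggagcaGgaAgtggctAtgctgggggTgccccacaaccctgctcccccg
IFITM1: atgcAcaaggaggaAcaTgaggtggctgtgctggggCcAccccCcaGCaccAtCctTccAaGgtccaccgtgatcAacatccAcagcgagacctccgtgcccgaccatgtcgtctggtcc
Within the stretches that aligned, the IFITM2 coding sequence was 93.9% and the IFITM1 coding sequence 91.4% identical to that of IFITM3. Of the 759 windows of 50 bases in the IFITM3 transcript used here, 14.4% occurred in an IFITM2 transcript and 12.9% in an IFITM1 transcript. Of the 681 such windows of the IFITM1 transcript, 314 (46.1%) occurred in an IFITM2 transcript. In the annotation 351 exon bases, 32.5% of those of IFITM1, also belong to an IFITM2 transcript that runs across the IFITM1 locus. IFITM3 shares 287 exon bases (21.3%) with the noncoding gene AC136475.5 on the opposite strand; the kit marked strand, but whether the counting used it is not given.

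Read totals over the listed genes were 46.1 to 55.7 megareads (Mreads) in the heavy pool (median 51.7) and 41.0 to 103.6 Mreads in the cytoplasm (median 48.0). Cytoplasmic libraries of a group lay farther apart, with a standard deviation around the group mean of 0.238 to 0.663 across genes on the log2 scale, against 0.164 to 0.254 in the heavy pool. The widest were cytoplasmic D7 A (0.663), D14 B (0.501), D16 B (0.485) and D2 A (0.484), and results that rest on these 4 are also given without them, a choice made after the data were seen. Of 10 epithelial and colorectal markers 7 were listed, and VIL1, CDX1 and LGR5 were not. KRT8 led with 115286 to 484136 normalised reads per library and a median of 194549. Medians of the others were 109810 for KRT19, 100211 for KRT18, 11281 for EPCAM, 1826 for CDH1, 1459 for CDX2 and only 91.9 for KRT20. Of 14 markers of other cell types ITGAM, COL1A1 and HBA1 were listed, with medians of 27.6, 448 and 82.8, and the other 11 were not. Their summed level was 467 to 641 in the heavy pool of D16, against 533 to 810 in that of D0, and 532 to 937 in the cytoplasm of D16, against 431 to 458 in that of D0. On D1 it was 1154 to 1237 in the heavy pool and 1263 to 1393 in the cytoplasm. The summed level of the epithelial markers was 647535 to 919609 in the heavy pool of D7, against 361779 to 418286 in that of D0, and 680356 to 938541 in the cytoplasm of D7, against 264624 to 283713 in that of D0. The part of either sum in the results was not tested. In such bulk samples fewer cells of a type and less RNA per cell cannot be told apart.

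Levels are the deposited read counts divided by a size factor per library, called normalised reads here, in the order of the letters A, B and C. IFI27 stood in the heavy pool at 17.2, 9.81 and 11.7 on D0, 33.7, 32.8 and 25.6 on D1, 89.1, 116 and 114 on D2, 114, 74.2 and 79.8 on D7, 994, 1321 and 750.2 on D14 and 2437, 2778 and 2173 on D16. In the cytoplasm it stood at 19.2, 16.7 and 28.8 on D0, 67.4, 29.6 and 37.6 on D1, 207, 108 and 85.7 on D2, 287, 108 and 210.2 on D7, 822, 991 and 534 on D14 and 2086, 2434 and 1360.5 on D16. Each D14 library lay above every earlier one of its fraction and each D16 library above every D14 one, whereas D2 and D7 overlapped. The D14 mean was 11.5 times that of D7 in the heavy pool and 3.88 times in the cytoplasm, and the D16 mean was 2.41 and 2.50 times that of D14. The difference from D0, on the scale of log2(value + 1), was 7.50 ± 0.22 (SE, n = 3) in the heavy pool on D16, a mean of 2463 ± 303 (SD, n = 3) against 12.9 ± 3.84 on D0. In the cytoplasm it was 6.43 ± 0.42, a mean of 1960 ± 548 on D16 against 21.6 ± 6.36 on D0. By the size of this difference IFI27 ranked 1 of 15889 genes in the cytoplasm.

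IFI6 was the most abundant of the late genes per kilobase. In the heavy pool it stood at 263, 227 and 168 normalised reads on D0, 421, 605 and 394 on D1, 1093, 1554 and 1486 on D2, 990.3, 932 and 1184 on D7, 5876, 7349.6 and 4982 on D14 and 11827, 16011 and 12564 on D16. In the cytoplasm it stood at 243, 306 and 187 on D0, 847, 972 and 728 on D1, 1970.2, 1245 and 933 on D2, 2503, 1128 and 2005 on D7, 4303, 5434 and 3431 on D14 and 9697, 11544 and 8099 on D16. D1 was already above D0 without overlap in both fractions, with a mean 2.16 times that of D0 in the heavy pool and 3.46 times in the cytoplasm, and D2 and D7 overlapped each other in both fractions. The D16 mean was 61.4 times that of D0 in the heavy pool (log2 difference 5.95 ± 0.18) and 39.8 times in the cytoplasm (5.32 ± 0.31).

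IFITM1, the IFITM gene of the cell surface, started low and was also highest late. In the heavy pool it stood at 38.5, 35.3 and 35.2 on D0, 39.6, 81.6 and 63.9 on D1, 82.3, 86.2 and 104 on D2, 170.3, 153 and 126 on D7, 735, 879 and 588 on D14 and 1593, 1693 and 1066 on D16. In the cytoplasm it stood at 38.5, 46.0 and 28.8 on D0, 149, 113 and 47.7 on D1, 126, 68.7 and 75.9 on D2, 190.2, 115 and 194 on D7, 441, 764 and 356 on D14 and 1349, 1781 and 1037 on D16. No library of D14 or D16 overlapped one of an earlier day, and within the cytoplasm D1, D2 and D7 overlapped. The D16 mean was 39.9 times that of D0 in the heavy pool (log2 difference 5.25 ± 0.22) and 36.8 times in the cytoplasm (5.15 ± 0.41).

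**Figure D2:**
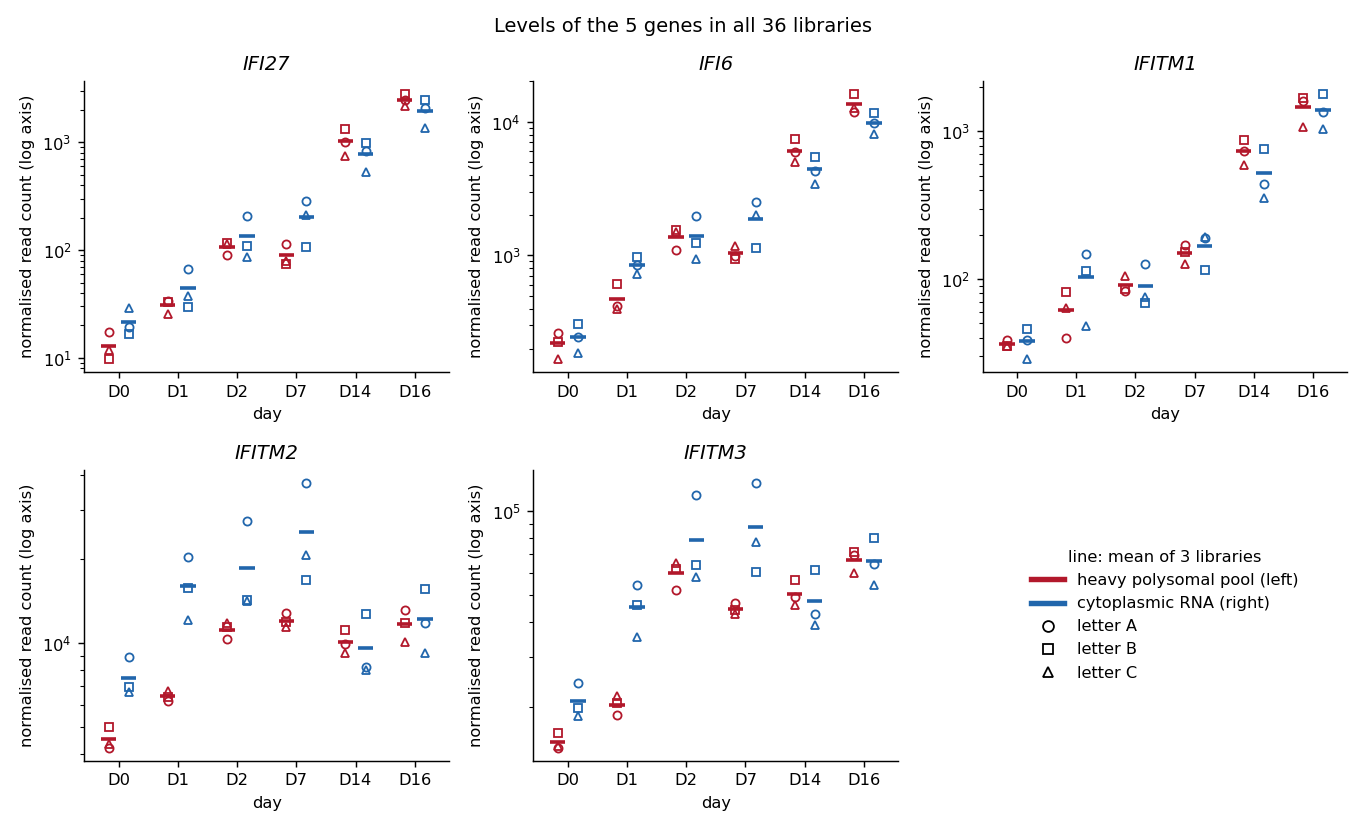
Normalised read counts (log axis) of the 5 genes by day, with the heavy polysomal pool left of cytoplasmic RNA on each day; symbols are single libraries and bars are means of 3. IFI27, IFI6 and IFITM1 have their highest values on D16 in both fractions, whereas cytoplasmic IFITM2 and IFITM3 have their highest means on D7, at 25013 and 87701, a peak day that for IFITM3 is D16 under total-sum or quantile scaling.

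IFITM3, the endosomal IFITM gene, was high throughout. In the heavy pool it stood at 14279.7, 16101 and 14415 on D0, 18586, 20544 and 21832 on D1, 51916, 61885 and 65336 on D2, 46902, 44105 and 42846 on D7, 49064, 56659 and 46064 on D14 and 69467, 71336 and 59799 on D16. In the cytoplasm it stood at 24367, 19779.5 and 18469 on D0, 54125, 46076 and 35456 on D1, 113452.5, 64038 and 58076 on D2, 125619, 60247 and 77238 on D7, 42771, 61445 and 39045 on D14 and 64686, 80136 and 54152 on D16. No later library overlapped D0, but in the heavy pool D7, D14, D2 and D16, in rising order of their means, overlapped each with the next, and in the cytoplasm so did D1, D14, D16, D2 and D7. The largest difference from D0 was 2.16 ± 0.10 on D16 in the heavy pool and 2.01 ± 0.29 on D7 in the cytoplasm. The day of this peak turned with the scaling, since the largest cytoplasmic difference was on D16 with each library scaled to the same total (1.83) or to the same quantiles (1.70), and the largest in the heavy pool was on D2 under quantile scaling (3.01). Cytoplasmic D2 A and D7 A, 2 of the libraries that stand apart, held the highest values of IFITM3.

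IFITM2 had the smallest differences from D0 among the 5 genes on D14 and D16. Its heavy pool values were 4213, 4977 and 4348 on D0, 6183, 6404 and 6704 on D1, 10324, 11371 and 11755 on D2, 12816, 11892 and 11390.2 on D7, 9891, 11113 and 9216 on D14 and 13095, 11803 and 10066 on D16, and D14, D2, D16 and D7, in rising order of their means, overlapped each with the next. As deposited the largest of its differences from D0 there was 1.42 on D7, but under total-sum and quantile scaling it was on D16, at 1.79 and 1.89. In the cytoplasm its values were 8928, 6923 and 6669 on D0, 20424, 15739 and 12055 on D1, 27398, 14209.6 and 14177 on D2, 37542, 16768 and 20728 on D7, 8211, 12704 and 7980.1 on D14 and 11828, 15667 and 9181 on D16. The cytoplasmic mean of D14 was 0.385 times that of D7 with no overlap, and D14 overlapped D0. The cytoplasmic difference from D0 was 1.66 ± 0.32 on D7, 0.34 ± 0.32 on D14 and 0.68 ± 0.32 on D16.

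On every later day all 5 genes had no overlap with D0 in either fraction, except IFITM2 in the cytoplasm on D14, which left 4. The share of all genes without overlap was not computed, and limma's test, whose shares follow, is another criterion. The share of all genes that passed limma's test against D0 at an adjusted p under 0.05 was 47.0%, 64.9%, 63.5%, 72.0% and 72.8% in the heavy pool on D1, D2, D7, D14 and D16, and 17.9%, 24.8%, 34.0%, 12.8% and 16.7% in the cytoplasm. The 5 comparisons of a fraction share its D0 libraries, and since the genes were chosen on these differences nothing is read from their count.

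Per kilobase of all annotated exon bases, IFITM3 had 49605 normalised reads in the heavy pool and 49202 in the cytoplasm on D16, IFI6 15569 and 11306, IFITM2 7553 and 7923, IFITM1 1343 and 1286, and IFI27 594 and 473. The place of IFI27 below IFITM1 depended on the length used, 4147 exon bases for IFI27 against 1080 for IFITM1. Per kilobase of the single transcript with the longest coding sequence, 644 and 730 bases long, IFI27 had 3824 and 3044 and IFITM1 1987 and 1903. The 3 late genes had near-parallel courses, with Pearson's r of 0.99 between IFI27 and IFI6, 0.98 between IFI27 and IFITM1 and 0.97 between IFI6 and IFITM1 over the 12 group means of log2(value + 1). For IFITM2 with IFITM3 r was 0.89, and between the late genes and either of these it ran from 0.30 to 0.75. These r describe 12 means that share days, lysates and size factors. Among the values of the IFITM genes, IFITM1 made up 1.50% to 2.00% in the heavy pool of D16, against 0.167% to 0.208% in that of D0, and 1.61% to 1.82% in the cytoplasm of D16, against 0.114% to 0.172% in that of D0. IFITM2 made up 13.9% to 15.6% in the heavy pool of D16, against 22.7% to 23.6% in that of D0, and 14.3% to 16.1% in the cytoplasm of D16, against 25.9% to 26.8% in that of D0. These shares compare values within 1 library, so they do not depend on its size factor.

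How the heavy pool compared with the cytoplasm within a day was not used to choose the genes, and this difference of log2(value + 1) was tested with limma across all 15891 genes. Of 30 tests, 5 genes on 6 days, 9 passed, all lower in the heavy pool, and they fell on D0, D1, D2 and D7 (plot of heavy pool against cytoplasm). IFITM2 was lower in the heavy pool on D1 (-1.29 ± 0.25, SE, limma adjusted p = 6.27e-05), with means of 6430 ± 262 in the heavy pool and 16073 ± 4194 in the cytoplasm (SD, n = 3). IFITM3 was lower on D1 too (-1.14 ± 0.22, limma adjusted p = 9.56e-05), with 20321 ± 1634 in the heavy pool and 45219 ± 9364 in the cytoplasm. All 3 letters had this sign for both genes, and both passed in 19 of 19 alternatives. IFI6 was the third gene to pass on D1 (-0.86 ± 0.27, limma adjusted p = 0.00722).

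On D7 IFITM2 (-0.97 ± 0.25, limma adjusted p = 0.00142), IFITM3 (-0.91 ± 0.22, 0.00112), IFI27 (-1.08 ± 0.35, 0.00945) and IFI6 (-0.79 ± 0.27, 0.0130) passed, lower in the heavy pool in 3 of 3 letters each. IFITM2 passed on D0 (-0.73 ± 0.25, limma adjusted p = 0.0171) and D2 (-0.67 ± 0.25, 0.0279) as well. The share of all genes that passed was 45.8% on D0, 58.3% on D1, 46.2% on D2 and 56.6% on D7, against 1, 3, 1 and 4 of the 5 members, so a call was common among all genes on these days. On D14 and D16 no member passed, against 1.23% and 0.850% of all genes. There IFI27 was at 0.39 ± 0.35 and 0.36 ± 0.35, and IFI6 at 0.47 ± 0.27 and 0.46 ± 0.27, with 3 of 3 letters higher in the heavy pool on both days. IFITM3 was at 0.11 ± 0.22 (95% interval -0.35 to 0.57) on D14 and 0.03 ± 0.22 (-0.43 to 0.49) on D16. IFITM1 passed on no day, with -0.65 ± 0.34 on D1 as its value farthest from 0; without cytoplasmic D1 C that value passed, at -1.12.

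These calls changed with the scaling between fractions and with the libraries that entered the fit. Scaling each library to the same total moved the median of all genes by -0.01 on D0, 0.43 on D1, 0.48 on D2 and 0.60 on D7, left 5 calls in place of 9, and put 72.8% of all called genes higher in the heavy pool on D1, 78.5% on D2, 78.1% on D7, 78.9% on D14 and 77.5% on D16, against 53.6%, 51.0%, 53.4%, 7.14% and 1.48% as deposited. Of all 15891 genes, 6436, 10000, 9413 and 10765 were called under total-sum scaling on D0, D1, D2 and D7. Relative to the median of all genes, IFITM3 on D1 was at -1.22 under total-sum scaling, against -1.23 as deposited. The calls of IFI27, IFI6, IFITM2 and IFITM3 on D7, IFI6 on D1 and IFITM2 on D2 were lost there, and IFITM3 on D0 and IFI6 on D2, higher in the heavy pool at 0.53, were gained. Under quantile scaling IFITM3 changed sign, to 0.79 on D2 (limma adjusted p = 3.21e-05, against a range of 3.21e-05 to 0.915 over its alternatives) and 0.47 on D7 (0.00569, range 0.000161 to 0.0790), so its direction on those days turned with the scaling. Leaving out letter A, with 2 libraries a group, left 4 calls. Lost were IFI27 (-0.96) and IFI6 (-0.52) on D7, IFI6 on D1 (-0.78) and IFITM2 on D0 (-0.55) and D2 (-0.30), of which IFI27 on D7, IFI6 on D1 and IFITM2 on D0 moved by less than their standard error. Without cytoplasmic D7 A alone, IFI27 (-0.77) and IFI6 (-0.55) did not pass on D7. IFITM2 on D0 did not pass without A of either fraction (-0.59 without the cytoplasmic and -0.68 without the heavy library), nor on D2 without cytoplasmic A (-0.35), heavy A (-0.61) or heavy B (-0.68). Without letter C, IFI27 (-0.93) and IFI6 (-0.81) on D7 and IFITM2 on D0 (-0.78) did not pass, although their values stayed within the standard error of those with all libraries.

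**Figure D3:**
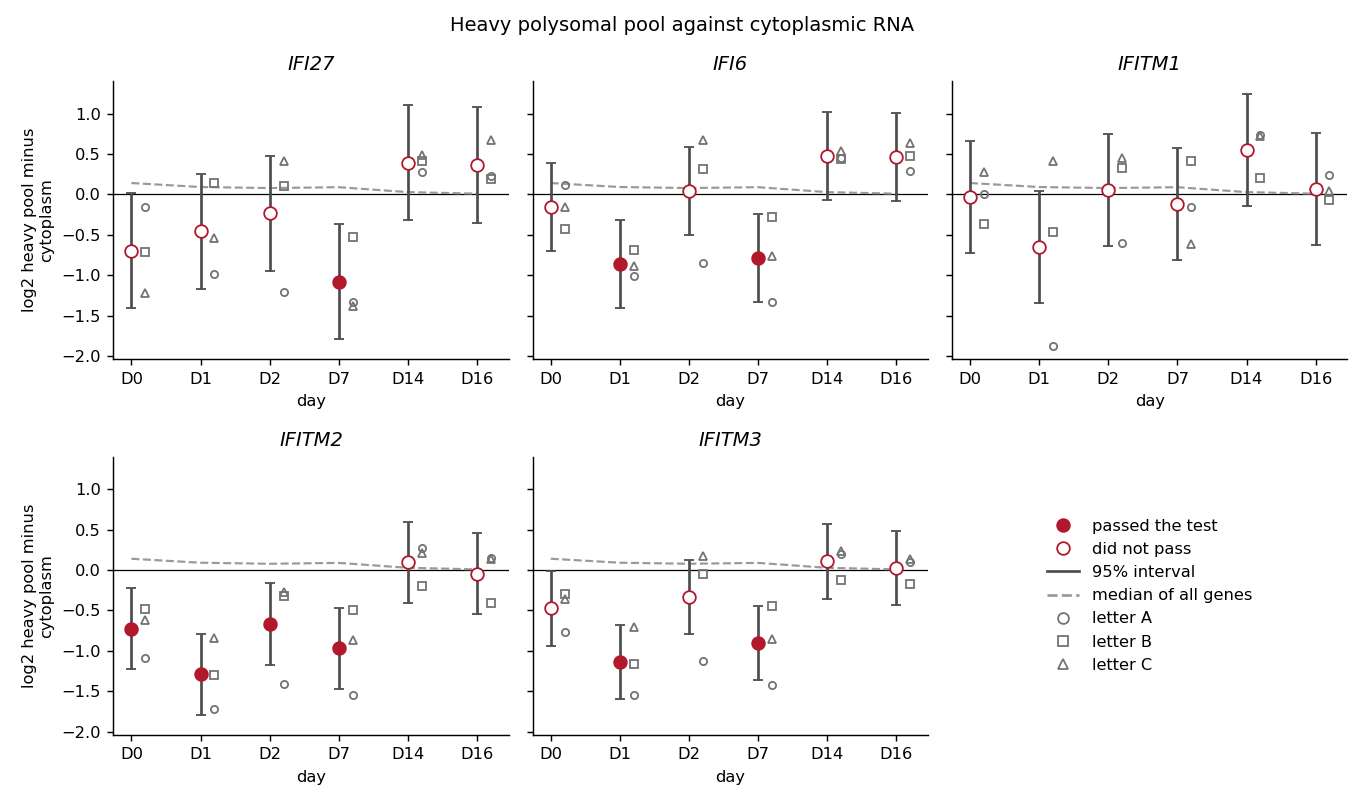
Difference of mean log2(value + 1), heavy pool minus cytoplasm, by day, with limma's 95% interval; filled circles passed the test, open circles did not, small symbols are single letters and the dashed line is the median of all genes. The filled circles lie below 0 on D0 to D7, and none is filled on D14 or D16.

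Whether this ratio changed from D0 was tested in the same fit, and 0 of 25 changes passed limma's adjusted threshold. At an unadjusted p under 0.05 there were 4, of which 3 were positive. The share of all genes at that unadjusted threshold was not computed, so nothing is read from these 4. The share of all genes that passed the adjusted threshold was 4.16% on D1, 2.06% on D2, 3.95% on D7, 28.3% on D14 and 29.5% on D16. All 10 changes of the members on D14 and D16 were positive, and those 2 days share the D0 libraries. The median change of all genes was -0.097 on D14 and -0.088 on D16. The changes of a day also come from the same libraries, so the 10 are not separate observations. The share of all genes with a positive change was not computed, so nothing is read from this count of signs. IFI27 differed from D0 by 1.09 ± 0.49 on D14 (95% interval 0.08 to 2.10, limma adjusted p = 0.0962) and by 1.06 ± 0.49 on D16 (0.05 to 2.07, 0.105). IFITM2 differed from D0 by 0.82 ± 0.35 on D14 (0.11 to 1.53, limma adjusted p = 0.0760) and 0.68 ± 0.35 on D16 (-0.03 to 1.39, 0.141). For IFITM3 the changes were 0.58 ± 0.32 on D14 and 0.50 ± 0.32 on D16, and for IFI6 0.63 ± 0.38 and 0.62 ± 0.38. IFITM1 stood at 0.58 ± 0.48 on D14 and 0.10 ± 0.48 on D16.

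The count of 0 turned on the libraries and the scaling. With the letter as a block, IFITM2 on D14 passed (limma adjusted p = 0.0493, range over its 25 alternatives 0.000422 to 0.244), whereas with the collection pair as the block no change did and its limma adjusted p was 0.0979. Total-sum scaling gave 7 calls and quantile scaling 6, all of them rises. Those under total-sum scaling fell on D14 and D16, and those under quantile scaling also on D2 and D7. Of all 15891 genes, 44, 132, 1589, 3151 and 3784 were called under total-sum scaling on D1, D2, D7, D14 and D16. Under quantile scaling 91, 263, 658, 3660 and 4070 were called. On D14 and D16, 78.6% and 74.7% of these called genes were higher under total-sum scaling, and 55.6% and 52.0% under quantile scaling. Without the 4 cytoplasmic libraries that stand apart, 9 of 25 changes passed, against 35.4%, 9.89%, 7.15%, 42.2% and 39.2% of all genes on D1, D2, D7, D14 and D16. On D14 IFI27 (1.28 ± 0.44), IFITM2 (1.04 ± 0.21), IFITM3 (0.78 ± 0.20) and IFI6 (0.80 ± 0.33) then passed as rises, on D16 IFI27 (1.24 ± 0.44), IFITM2 (0.88 ± 0.21) and IFITM3 (0.65 ± 0.20). On D1 IFITM2 (-0.56 ± 0.20) and IFITM3 (-0.66 ± 0.19) passed as falls. Both D1 values were the same with all libraries, with standard errors of 0.35 and 0.32, since no D0 or D1 library was left out. Of the within-day differences 9 again passed without these libraries, with IFI27 and IFITM3 gained on D0 and IFI6 on D7 and IFITM2 on D2 lost. The D0 values of IFI27 (-0.70) and IFITM3 (-0.48) were the same as with all libraries. The share of all genes that passed was then 59.9% on D0, 69.5% on D1, 46.8% on D2 and 56.7% on D7. It was 4.34% on D14 and 1.4% on D16. The gain on D0 thus came with more calls among all genes, where the share was 45.8% with all libraries. The heavy pool and the cytoplasm were also more alike across all genes on the late days, where the standard deviation of the log2 ratio over genes was 0.420 on D14 and 0.357 on D16, against 0.763 on D0. Whether the members' changes are part of that was not tested.

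**Figure D4:**
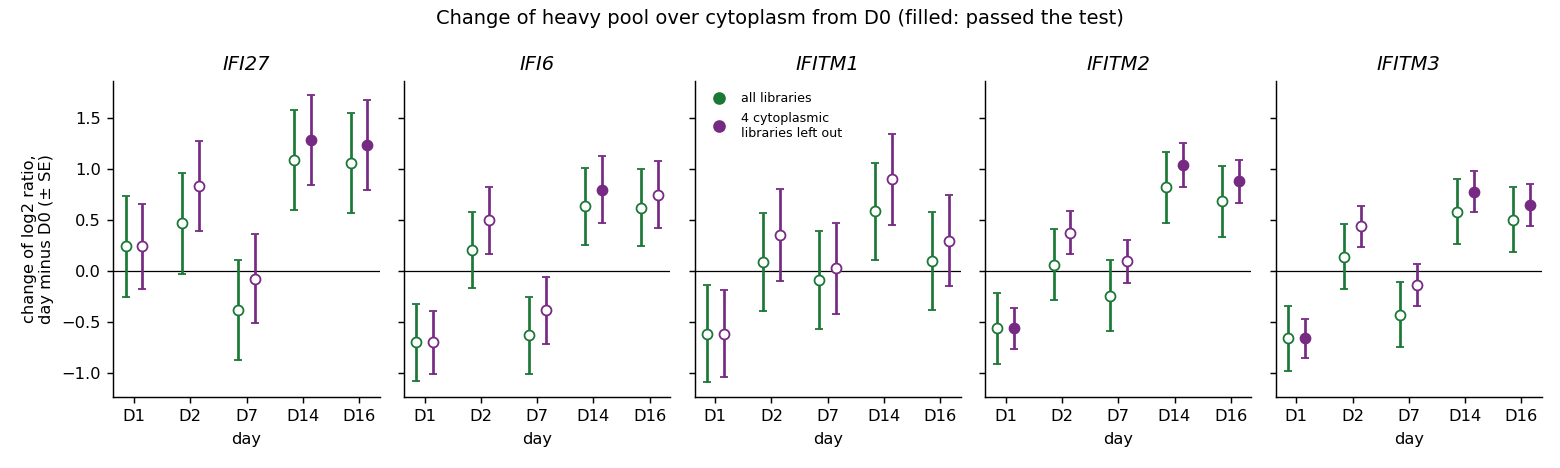
Change from D0 of the log2 ratio of heavy pool to cytoplasm, with its standard error, for all libraries and with 4 cytoplasmic libraries left out; filled circles passed the test. No circle is filled with all libraries, and 9 are filled without the 4, 7 of them rises on D14 and D16.

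Among the other genes of the pathway, 25 of 35 further antiviral effectors were listed, and most of them rose by D16. MX2, OAS1, OAS2, RSAD2, IFI44, IFI44L, XAF1, SAMD9L, TRIM22 and RTP4 were not listed in the table, which holds only genes with a value above 1 in every library. In the heavy pool 16, 18, 19, 20 and 24 of the 25 rose on D1, D2, D7, D14 and D16, and 3, 3, 1, 2 and 0 fell. In the cytoplasm 6, 9, 13, 14 and 23 rose, and 0, 1, 1, 0 and 0 fell. Of all genes 20.1%, 30.4%, 27.0%, 34.4% and 36.2% rose in the heavy pool on these days, and 10.9%, 14.2%, 18.3%, 7.75% and 9.47% in the cytoplasm. The median difference from D0 on D16 was 1.66 in the heavy pool, where that of all genes was 0.02, and 1.58 in the cytoplasm, where that of all genes was -0.01. Without the 4 libraries that stand apart 20 rose in the cytoplasm on D14 and 25 on D16. Leaving out letter C left 9 calls on D14 and 10 on D16, leaving out letter B left 15 on D16, and leaving out cytoplasmic D0 C left 9 on D14.

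The translation inhibitors IFIT1, IFIT2 and IFIT3 were among the larger of these rises. IFIT3 rose by 4.36 ± 0.20 in the heavy pool on D16 (limma adjusted p = 2.54e-14), to 935 ± 233 normalised reads against 45.0 ± 13.4 on D0 (SD, n = 3), and by 4.16 ± 0.45 in the cytoplasm (8.54e-06). IFIT2 rose by 4.27 ± 0.20 and 4.81 ± 0.60, and IFIT1 by 3.46 ± 0.16 and 3.86 ± 0.35. Their relative IFIT5, named after its values were seen, rose by 0.44 ± 0.10 in the heavy pool and stood at 0.70 ± 0.33 in the cytoplasm, where it did not pass (limma adjusted p = 0.164). The tetherin gene BST2, which holds budding virions on the cell, rose by 4.14 ± 0.23 and 3.74 ± 0.39, and the GTPase MX1 by 3.76 ± 0.37 and 3.45 ± 0.83. OASL, which enhances RNA sensing, was earlier, with 4.22 ± 0.25 in the cytoplasm on D2 and 3.35 ± 0.25 on D16. ISG15, a ubiquitin-like modifier, was also highest early, at 3.84 ± 0.34 in the cytoplasm on D2 and 1.58 ± 0.34 on D16 (limma adjusted p = 0.00403). Of the 25 effectors, 17 in the heavy pool and 19 in the cytoplasm had their highest mean on D16, as IFI27, IFI6 and IFITM1 did. The share of all genes with their highest mean on D16 was not computed, so nothing is read from these counts.

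**Figure D5:**
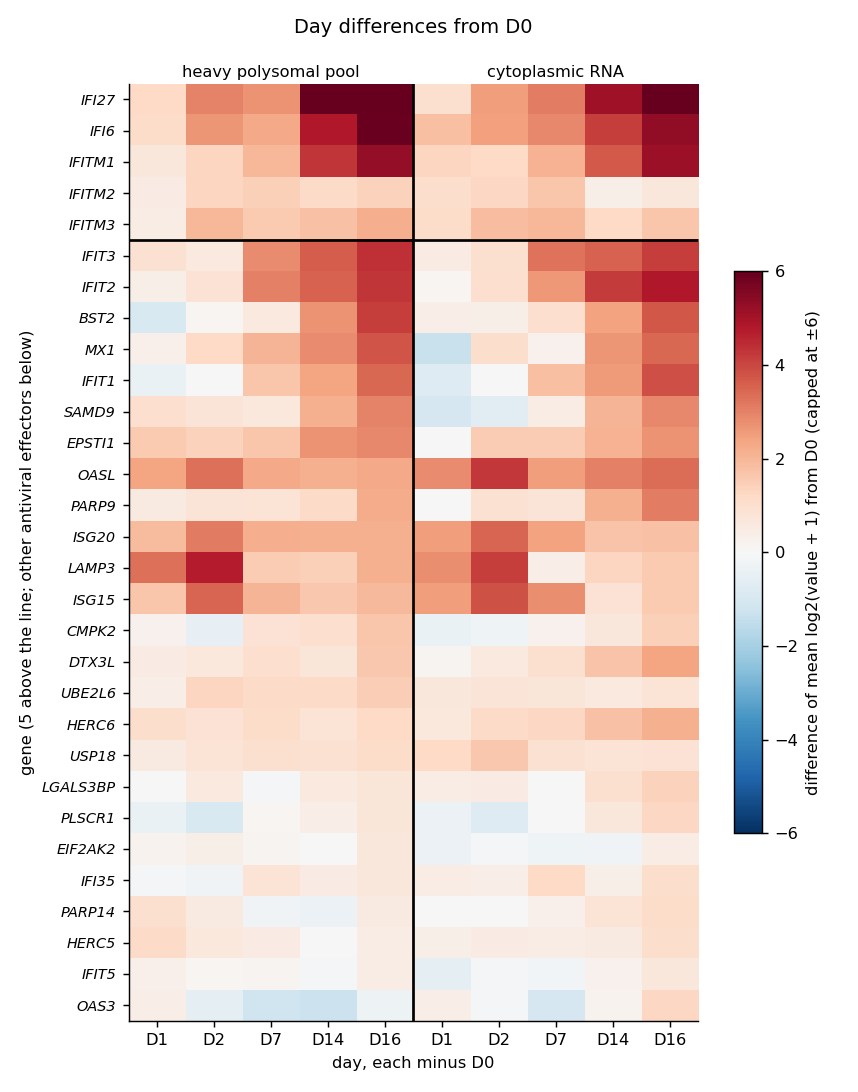
Difference of mean log2(value + 1) from D0 for the 5 genes (above the line) and 25 further antiviral effectors (below), in the heavy pool at left and the cytoplasm at right; colours stop at 6 in either direction. IFI27, IFI6 and IFITM1 are darkest on D16, as are IFIT1, IFIT2, IFIT3, BST2 and MX1, whereas ISG15 is darkest on D2.

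Of 17 listed receptor and signalling genes, 5 rose and 5 fell in the heavy pool on D14 and 7 rose and 4 fell on D16, while in the cytoplasm 3 rose on D14 (5 with the letter as a block, 6 without the libraries that stand apart) and 6 on D16. Of all genes 34.4% rose and 37.6% fell in the heavy pool on D14 and 36.2% and 36.6% on D16. The 10 and 11 of 17 called there stand beside 72.0% and 72.8% of all genes, and nothing is read from them. In the cytoplasm 7.75% and 9.47% of all genes rose on D14 and D16. IRF7, the transcription factor that amplifies interferon induction, rose in the heavy pool by 1.97 ± 0.18 on D14 and 2.65 ± 0.18 on D16, and in the cytoplasm by 2.11 ± 0.28 and 3.08 ± 0.28. STAT2 fell in the heavy pool on D14 (-0.50 ± 0.17, limma adjusted p = 0.0118) and rose in the cytoplasm on D16 (limma adjusted p = 0.0105), with a mean of 1338 ± 698 there against 501 ± 36.3 on D0. IRF9 was not listed. The feedback inhibitor SOCS1 rose by 2.74 ± 0.26 in the heavy pool and 1.63 ± 0.36 in the cytoplasm on D16, SOCS3 by 1.51 ± 0.29 in the cytoplasm on D16 and the transcription factor IRF1 by 1.02 ± 0.29 in the cytoplasm on D14. The receptor-bound kinases fell in the heavy pool, where JAK1 fell by 1.19 ± 0.11 on D14 and TYK2 fell by 1.25 ± 0.11 on D16, and the receptor subunit IFNAR1 rose there by 0.93 ± 0.14 on D16.

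Of 8 listed nucleic acid sensors and their adaptors, 4 rose and 2 fell in the heavy pool on D14, 4 rose and 3 fell on D16, and 3 and 4 rose in the cytoplasm. The 6 and 7 of 8 called in the heavy pool stand beside 72.0% and 72.8% of all genes, and nothing is read from them. STING1, the adaptor for cytosolic DNA, rose by 1.78 ± 0.11 in the heavy pool and 2.04 ± 0.19 in the cytoplasm on D16. IFIH1, a sensor of long double-stranded RNA, rose by 2.25 ± 0.19 and 2.08 ± 0.56. TLR3, the endosomal receptor for double-stranded RNA, rose by 1.31 ± 0.19 in the heavy pool on D16 and 1.95 ± 0.52 in the cytoplasm on D14. MAVS, the mitochondrial adaptor, was lower in the heavy pool, at -0.96 ± 0.12 on D14 and -0.67 ± 0.12 on D16, as was the kinase TBK1 at -0.41 ± 0.17 on D14. No call named for D14 or D16 changed sign under total-sum or quantile scaling.

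Of 4 relatives of the members, IFITM5 and IFITM10 were not listed. IFI27L1 and IFI27L2, which flank IFI27 at 0.99 and 11.1 kb and belong to the same family, had means of 652 and 1189 in the heavy pool of D16, against 430 and 457 on D0, and of 565 and 1331 in the cytoplasm of D16, against 688 and 962 on D0. Both rose in the heavy pool on D16 (0.60 ± 0.12 and 1.38 ± 0.11, limma adjusted p = 0.000131 and 3.23e-10), and neither passed in the cytoplasm on D14 or D16. The nearest listed genes beside the IFITM cluster were PGGHG and B4GALNT4, at 11.5 and 42.3 kb. Their D16 means were 0.831 and 1.11 times those of D0 in the heavy pool and 1.38 and 1.11 times in the cytoplasm. Beside IFI6, FAM76A stood at 1.53 and 1.09 times D0, and the processed pseudogene ENSG00000235912 at 2.28 and 0.568 times D0.

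Among 14050 genes compared over the 12 group means, the ones most like IFI27 were IGFBP3 (r = 0.98), a binding protein of insulin-like growth factors, FGFBP1 (0.98), which carries fibroblast growth factors, and ID2 (0.97), an inhibitor of basic helix-loop-helix factors. IFI6 was most like FGFBP1 (0.97), IGFBP3 (0.97) and POU2F3 (0.96), a transcription factor of tuft cells, and IFITM1 most like FGFBP1 (0.97), BST2 (0.97) and ID2 (0.96). FGFBP1 had means of 1987 ± 161 in the heavy pool of D16, against 217 ± 53.0 on D0, and 1530 ± 123 in the cytoplasm of D16, against 204 ± 20.0 on D0 (SD, n = 3). IFITM2 was most like EML2-AS1 (0.98), RTL8C (0.97) and ADPRHL1 (0.97). IFITM3 was most like AQP7P3 (0.96), ENSG00000277737 (0.96) and AQP7P1 (0.96), of which AQP7P3 and AQP7P1 are pseudogenes of an aquaporin, so that reads from near-identical copies make their values uncertain. These are descriptions of 12 means.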

How the data were processed

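The authors deposited 1 table of 15891 genes whose unit is a signal: reads counted per gene, each library scaled by a size factor of its own. STAR 2.7.9a, featureCounts (Subread 2.0.1), DESeq2 1.30.1, cutadapt 3.2, FastQC 0.11.9 and the build GRCh38 are named in the submitters' processing notes. Strand and multi-mapping settings are not given in the sources used here. Of 54 columns 36 were matched to samples by title and 18, of no sample here, were not used. In each column values were whole multiples, within 0.01, of 1 step, which was taken as 1 read for the depths given. The smallest value was 1.004, so the table lists no gene that was silent in a library.

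Values were transformed to log2(value + 1), which understates changes of low genes, and a gene was kept where 3 or more libraries had values of 10 or more; all 5 members passed. limma 3.58.1 (R 4.3.3, lmFit, eBayes with trend) was fitted to all 12 groups for the ratio of heavy pool to cytoplasm and its change from D0, and within a fraction for days. Each fit used 1 estimate of spread per gene for all its groups. With all libraries a gene's standard error was therefore the same on every day, although the groups differed in spread. Tests were two-sided, with Benjamini-Hochberg adjustment over all genes tested and a threshold of 0.05; the steps were tested on simulated data. The members and gene lists were chosen with earlier results of these data known.

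Genes named are the members, up to 4 called genes per list in each fraction on D14 and D16 with a mean of at least 100, the 3 most alike genes per member, 1 listed neighbour on each side, and STAT2, IRF9, IRF7 and ISG15; another gene that this rule names is not reported here. The letters pair libraries by their batch label. Same-letter deviations from group means correlated between days with r averaging 0.07 for the heavy pool (20 of 45 pairs over 0.1), 0.19 for the cytoplasm (27 of 45) and -0.00 between fractions of a day (5 of 18). A letter block was an alternative, as were another scaling, pseudocount, filter or trend setting, and leaving out libraries. Symbols were matched for 15856 identifiers, and 15799 were found in GENCODE 29. Sequences came from RefSeq (GRCh38.p14) and GENCODE 29 transcripts, aligned with Biopython 1.88.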

Additional observations from a re-analysis of the deposited data

How the results depend on the processing

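The 9 calls of heavy pool against cytoplasm numbered 9 to 11 under the letter block, the collection pair as a block, quantile scaling, both pseudocounts, both filters, no trend and without the 4 cytoplasmic libraries that stand apart (D2 A, D7 A, D14 B and D16 B, chosen after the data were seen), but were 5 under total-sum scaling and 4 to 10 when a letter or library was left out. The 11 calls under quantile scaling include IFITM3 on D2 and D7, higher in the heavy pool. Of all 15891 genes, 6125, 8565, 6908 and 8762 were called under that scaling on D0, D1, D2 and D7. The 0 calls of a change from D0 became 1 with the letter as a replicate block, 7 under total-sum scaling, 6 under quantile scaling, 9 without the 4 libraries, and 0 to 1 with 1 letter or library left out (1 without cytoplasmic D2 A, D7 A or D14 B). For the change from D0, the calls among all genes under both scalings and without the 4 libraries are given with the results above. Effectors called in the cytoplasm numbered 9 to 16 on D14 and 10 to 23 on D16 under leave-outs. The replicate block changed no other member's call, and with the collection pair as block there were 0. The planned count models were not run, because the deposited values are scaled counts. The cause of these shifts was not tested. The calls gained on D0 and D1 without the 4 libraries came with unchanged values and smaller standard errors.

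No difference of a member from D0 changed sign, but of 100 differences between 2 later days 10 did under total-sum or quantile scaling, 6 of IFITM3, 3 of IFITM2 and 1 of IFITM1, among them D16 against D7 for cytoplasmic IFITM3 and heavy-pool IFITM2. Values of the heavy pool against cytoplasm that changed sign under total-sum scaling were 0.25 for IFI27 on D2, 0.48 for IFITM1 on D7, 0.20 for IFITM2 on D16 and 0.15 for IFITM3 on D2. Under quantile scaling they were -0.038 for IFI6 on D2, 0.26 and 0.026 for IFITM1 on D0 and D7, 0.035 for IFITM2 on D16, and 0.79 and 0.47 for IFITM3 on D2 and D7. Without the 4 libraries they were 0.13 for IFI27 on D2 and 0.15 for IFITM2 on D16. Changes from D0 that changed sign were, under total-sum scaling on D7, 0.22 for IFI27, 0.52 for IFITM1, 0.37 for IFITM2 and 0.18 for IFITM3. Under quantile scaling they were -0.026 and -0.16 for IFITM1 on D2 and D16, 0.35 for IFITM2 on D7, and 0.010 and 1.14 for IFITM3 on D1 and D7. Without the 4 libraries, on D7, they were 0.026 for IFITM1 and 0.092 for IFITM2.

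With 1 letter or library left out, no sign change passed the test. Ranges across 0 for heavy pool against cytoplasm were -0.34 to 0.021 and -0.26 to 0.49 for IFI6 on D0 and D2, -0.55 to 0.26 for IFI27 on D2, -0.21 to 0.14, -0.14 to 0.39, -0.39 to 0.13 and -0.12 to 0.28 for IFITM1 on D0, D2, D7 and D16, -0.024 to 0.31 and -0.23 to 0.15 for IFITM2 on D14 and D16, and -0.59 to 0.060, -0.024 to 0.30 and -0.11 to 0.17 for IFITM3 on D2, D14 and D16. For the change from D0 they were -0.070 to 0.77, -0.12 to 1.23 and -0.78 to 0.012 for IFI27 on D1, D2 and D7, -0.10 to 0.79 for IFI6 on D2, -1.09 to 0.019, -0.22 to 0.43, -0.53 to 0.31 and -0.094 to 0.31 for IFITM1 on D1, D2, D7 and D16, -0.10 to 0.38 and -0.49 to 0.092 for IFITM2 on D2 and D7, and -0.055 to 0.44 for IFITM3 on D2. The fewest reads were those of IFI27 on D0, at 9.81 to 28.8 normalised reads, and whether depth limits its values was not tested.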
